A study of Mus musculus with 8 samples.

Results

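The genes of the lipid droplet were examined in liver RNA of mice that had lost Smoothened (Smo), the signal transducer of the Hedgehog pathway, in hepatocytes. They were chosen by name: 4 perilipins that coat the droplet (Plin2, Plin3, Plin4, Plin5), the 3 CIDE proteins that act in droplet fusion and lipid loading of lipoproteins (Cidea, Cideb, Cidec), the 2 lipases that open triglyceride breakdown (Pnpla2, Lipe) and G0s2, a protein inhibitor of the first of these. This choice was made with earlier results of these data known. All 10 genes were found among the 25239 gene symbols that the count files hold. RNA came from whole livers of 4 control and 4 Smo-KO mice, all adult males with floxed Smo (Smo fl/fl) on a C57Bl6/J background. All 8 mice ate the CDA-HFD, a diet deficient in choline that supplies protein as defined amino acids and 60% of its energy as fat, for 6 weeks and received a vector into the tail vein 1 week before sacrifice. Its AAV8 capsid comes from an adeno-associated virus that infects liver, and its TBG promoter restricts the cargo to hepatocytes. The cargo was luciferase for control mice (AAV8-TBG-Luciferase) and the recombinase that cuts out floxed DNA for Smo-KO mice (AAV8-TBG-Cre Recombinase), so both groups carry the floxed alleles although the labels call the control genotype WT, and both were exposed to the virus and the diet. The paper gives an age at injection for its chow-fed Smo fl/fl mice, but the age of the mice used here is not given in the sources used here. Cells other than hepatocytes keep Smo under this promoter, and a group without the diet or without a vector was not analysed here.

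A lipid droplet is a core of triglyceride and cholesteryl ester under a single layer of phospholipid, and hepatocytes store fat in it. Perilipins sit on that surface and limit the access of lipases. Adipose triglyceride lipase, the product of Pnpla2, takes the first fatty acid from triglyceride, with Abhd5 as its activator and G0s2 and Hilpda as its inhibitors, and hormone-sensitive lipase, the product of Lipe, takes the next. Cidec is found on large droplets, including those of fatty liver, whereas Cideb is the form of the normal hepatocyte and Cidea that of brown fat.

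The libraries held between 8203299 and 9999732 reads on genes, with 9177277 to 9999732 in control and 8203299 to 9543675 in Smo-KO livers (exact permutation test, two-sided p = 0.257, smallest p possible 0.0286). Levels are given in CPM, the reads of a gene divided by the library's reads on genes and set to a common total of 1e6, after the library sizes were scaled by TMM, a method that assumes most genes to be equal between libraries. At this depth 3 reads correspond to 0.300 to 0.366 CPM before the scaling by TMM. Smo itself stood at 8.17, 8.49, 8.74 and 8.21 CPM in control livers 1 to 4 and at 5.67, 3.93, 4.27 and 4.37 CPM in Smo-KO livers 1 to 4. The groups did not overlap, and the Smo-KO mean was 54.3% of the control mean (log2 fold change -0.88, SE 0.16, edgeR adjusted p = 0.0957, exact permutation test, two-sided p = 0.0286). Smo-KO liver 1 kept the highest Smo level of its group. In RNA from whole liver, fewer cells of a type and less RNA per cell cannot be told apart.

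The coat genes Plin2 and Plin4 and the lipase genes Pnpla2 and Lipe stood higher on average in Smo-KO livers. They were the members whose unadjusted p was under 0.05 by the quasi-likelihood test of edgeR, and no member had such a p with a lower level. That is 4 of the 9 members that passed the filter on low counts, where 13.8% of the 12977 genes tested had such a p in either direction and 6.7% had it with a higher Smo-KO level. After Benjamini-Hochberg adjustment over all genes tested, edgeR called 0 members and 0% of all genes. DESeq2, the other tool run, called 2 members, Plin4 and Pnpla2, both higher in Smo-KO livers, against 1.29% of the 12974 genes that it gave an adjusted p in either direction and 0.632% in that direction. In 2 members, Pnpla2 and Lipe, every Smo-KO liver lay above every control liver, where the groups did not overlap in 7.37% of all genes tested and lay in that order in 3.03%. The log2 fold changes of the 9 tested members had a median of 0.40 and were positive in 6, beside a median of -0.00084 over all genes tested, of which 6470 were positive. Changing the scaling moved the median of all genes by at most 0.0062 on the log2 scale.

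**Figure D1:**
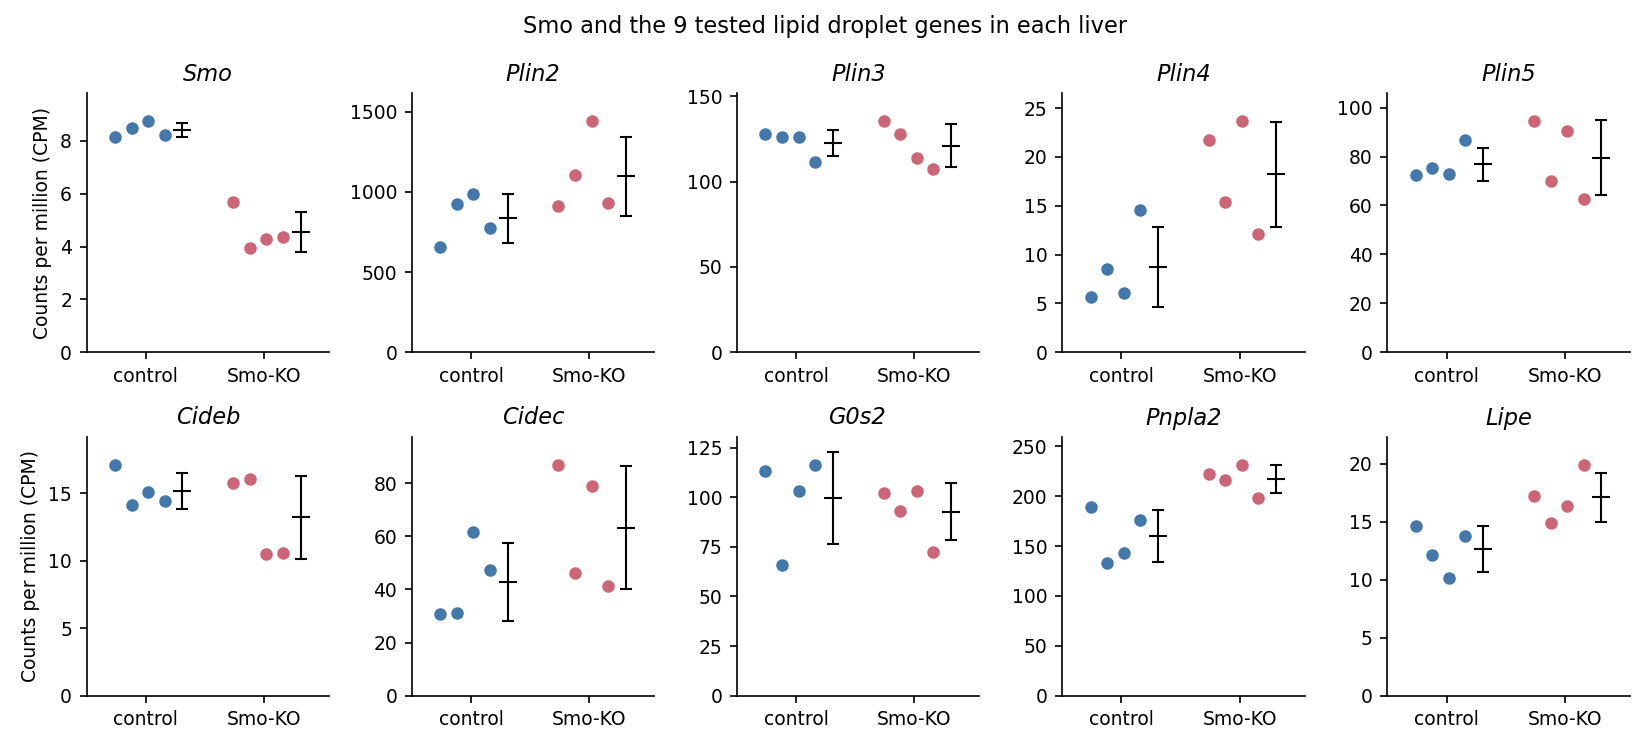
Level of Smo and of the 9 members that passed the filter, in CPM on axes that start at 0, with 1 point per liver (blue, control; red, Smo-KO; livers 1 to 4 from left to right) and the mean with its SD to the right of each group. Smo, Pnpla2 and Lipe show no overlap of the groups, and control liver 4 and Smo-KO liver 4 lie close together for Plin4.

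**Figure D2:**
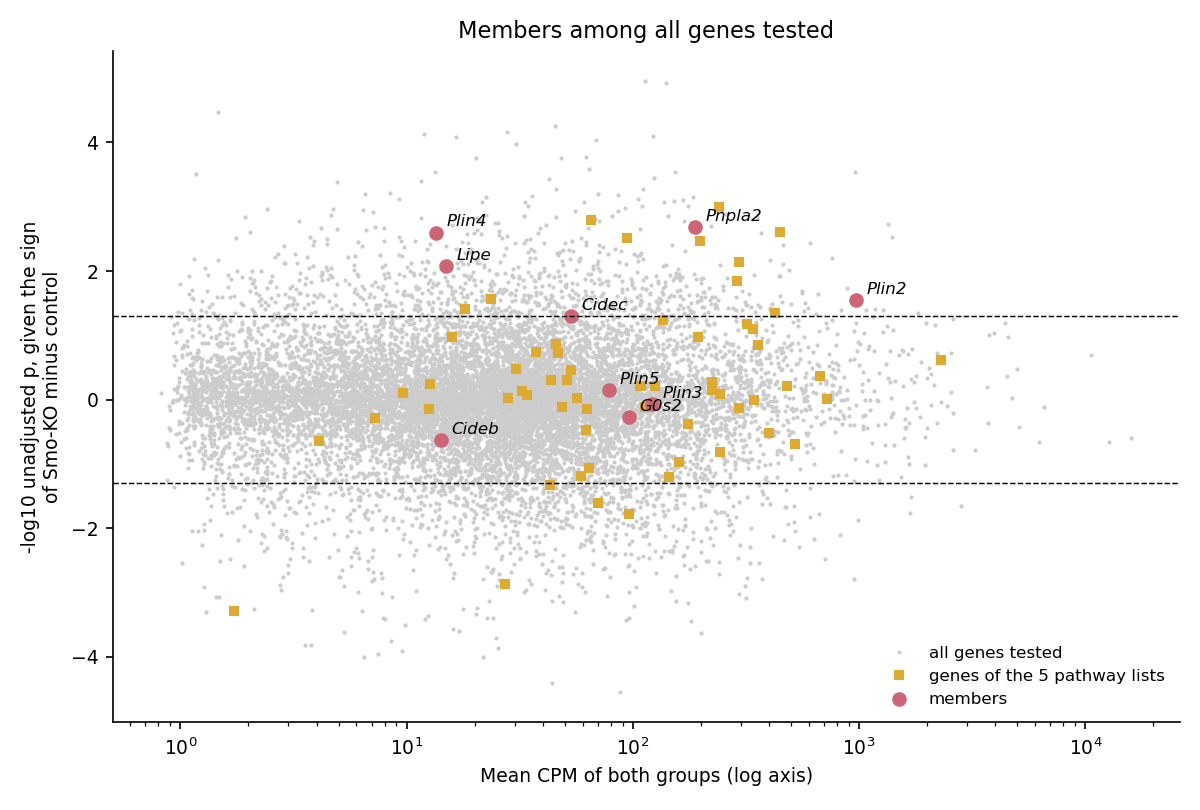
Unadjusted p of edgeR's test as -log10, given the sign of the difference (above 0, higher in Smo-KO livers), against the mean CPM on a log axis, with 1 point per gene tested. Dashed lines mark the unadjusted threshold of 0.05, and the members Plin2, Plin4, Pnpla2 and Lipe lie above the upper line.

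Plin2 (adipophilin), the coat protein found on droplets of nearly all cells and the marker of fatty hepatocytes, was the most abundant member. It measured 653, 924, 986 and 772 CPM in control livers 1 to 4 and 911, 1106, 1441 and 929 CPM in Smo-KO livers 1 to 4. All 4 Smo-KO livers lay above the control mean and 2 above the highest control liver, so the groups overlapped. The mean was 834 ± 150.4 CPM in control and 1097 ± 246 CPM in Smo-KO livers (SD, n = 4 each). The log2 fold change was 0.40 with an SE of 0.16 (edgeR, unadjusted p = 0.0281, adjusted p = 0.301). It was 0.24 without Smo-KO liver 3, the highest of all, and the unadjusted p was then 0.115. The unadjusted p was also above 0.05 without control liver 1 (0.0827) and without control liver 4 (0.0672).

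Plin4 (S3-12), a long perilipin known from adipocytes and muscle, had the largest fold change of the tested members, from a low level. Control livers 1 to 4 had 5.67, 8.49, 6.06 and 14.5 CPM, from 50, 81, 61 and 147 reads. Smo-KO livers 1 to 4 had 21.8, 15.4, 23.7 and 12.2 CPM, from 211, 141, 194 and 114 reads. Control liver 4 lay above Smo-KO liver 4, and all other Smo-KO livers lay above all control livers. The mean level was 2.10 times that of control livers (8.69 ± 4.09 CPM in control and 18.2 ± 5.38 CPM in Smo-KO livers, SD, n = 4 each). The log2 fold change was 1.06 with an SE of 0.28, with an adjusted p of 0.163 in edgeR and of 0.0193 in DESeq2. It ranged from 0.91 to 1.43 when each liver was left out in turn, and was highest without control liver 4.

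Plin3 (TIP47), a cytosolic perilipin that binds new droplets, and Plin5, the perilipin of tissues that burn fat, which ties droplets to mitochondria, had overlapping groups. Plin3 measured 128, 126, 126 and 111 CPM in control livers and 135, 128, 114 and 108 CPM in Smo-KO livers. Plin5 measured 72.5, 75.4, 72.8 and 86.7 CPM in control livers and 94.4, 70.1, 90.6 and 62.8 CPM in Smo-KO livers. For both, 2 Smo-KO livers lay above the control mean and 2 below it. The 95% interval of the log2 fold change ran from -0.23 to 0.19 for Plin3 and from -0.23 to 0.33 for Plin5, and edgeR's adjusted p was 0.952 and 0.904.

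Plin4 and Plin5 are neighbours in the genome, on the minus strand of chromosome 17 in GRCm38 (Plin4 from 56100591 to 56109803, Plin5 from 56111601 to 56117596, with 1797 bases between them), and Plin3 lies on the same strand from 56277476 to 56292873. The 3 genes had different patterns over the livers: Smo-KO liver 3 was the highest of all 8 for Plin4, the second highest for Plin5 and below 5 livers for Plin3. Plin2 is on the minus strand of chromosome 4, from 86648386 to 86670060.

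Per length, as CPM per kilobase (kb) of the exons of all annotated transcripts merged, Plin2 made up most of the coat protein RNA in every liver. Its level was 442 ± 79.6 CPM per kb in control and 581 ± 130.04 CPM per kb in Smo-KO livers, which was 85.7% ± 2.34 and 88.4% ± 2.48 of the sum of the 4 perilipins (SD, n = 4 each). Plin4 held 0.299% ± 0.152 and 0.483% ± 0.128 of that sum. The sum was 417, 562, 593 and 483 CPM per kb in control livers 1 to 4 and 569, 657, 842 and 554 CPM per kb in Smo-KO livers 1 to 4, and the groups overlapped. In control livers the order of the levels per length was Plin2, G0s2, Pnpla2, Plin5, Plin3, Cidec, Cideb, Lipe, Plin4 and Cidea. Among neighbours in that order, the ranges of the control livers overlapped for Plin5 (34.7 to 41.6 CPM per kb) and Plin3 (30.6 to 35.1), for Plin3 and Cidec (17.6 to 35.05), and for Lipe (1.85 to 2.67) and Plin4 (0.982 to 2.52). G0s2 (75.4 to 134 CPM per kb) and Pnpla2 (50.8 to 71.9) did not overlap in control livers, but did in Smo-KO livers (83.1 to 118 and 75.7 to 88.2). A length that counts exons of rarely used transcripts lowers the value of a gene with many of them.

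**Figure D3:**
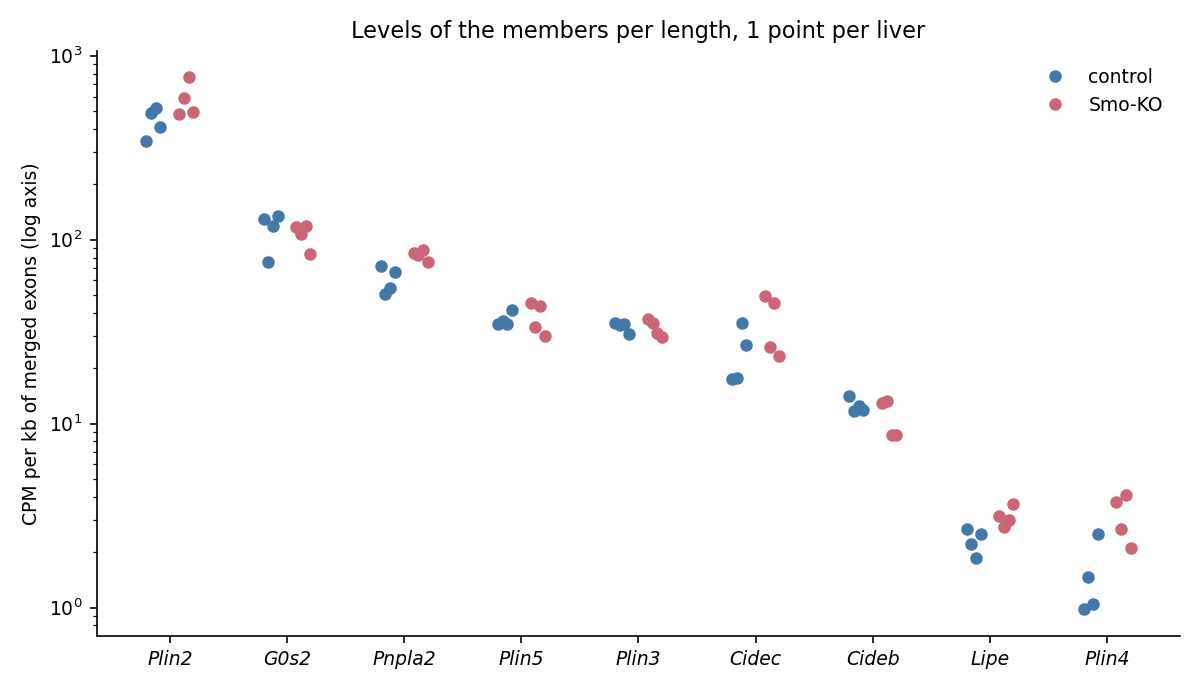
Level of the 9 tested members in CPM per kb of merged exons, on a log axis, with 1 point per liver (blue, control; red, Smo-KO), in the order of the control means. Plin2 lies above every other member in all 8 livers, and Lipe and Plin4 lie lowest.

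Pnpla2, the lipase that starts the breakdown of stored triglyceride, was higher in each Smo-KO liver than in any control liver. It measured 189, 133, 143 and 176 CPM in control livers 1 to 4 and 222, 216, 232 and 199 CPM in Smo-KO livers 1 to 4. The mean was 160.2 ± 26.3 CPM in control and 217 ± 13.9 CPM in Smo-KO livers (SD, n = 4 each), that is 136% of control. The log2 fold change was 0.44 with an SE of 0.11, with an adjusted p of 0.156 in edgeR and of 0.0355 in DESeq2. With each liver left out in turn it lay between 0.36 and 0.53, and the unadjusted p between 0.000422 and 0.00784. Pnpla2 lies on the plus strand of chromosome 7 (GRCm38, 141455198 to 141460743).

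Lipe, whose product hydrolyses diglyceride and, in steroid-making cells and macrophages, cholesteryl ester, was the other member without overlap. It measured 14.6, 12.2, 10.1 and 13.7 CPM in control livers 1 to 4 and 17.2, 14.9, 16.3 and 19.9 CPM in Smo-KO livers 1 to 4. The lowest Smo-KO liver and the highest control liver were close, at 137 and 129 reads. The mean was 12.7 ± 1.97 CPM in control and 17.1 ± 2.10 CPM in Smo-KO livers (SD, n = 4 each), and the log2 fold change was 0.44 with an SE of 0.14. The adjusted p was 0.221 in edgeR and 0.174 in DESeq2. Opposite to Lipe (chromosome 7, minus strand, 25379527 to 25398710) lies 4732471J01Rik, which shares 15.7% of the exon bases of Lipe, and the sources used here do not say whether the counting used strand.

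For G0s2, the inhibitor of the Pnpla2 lipase, the groups overlapped. Its level was 113, 65.6, 103 and 116 CPM in control livers 1 to 4 and 102, 93.1, 103 and 72.4 CPM in Smo-KO livers 1 to 4. Within the Smo-KO group the livers had the same order for G0s2 as for Pnpla2, and the liver with the lowest Pnpla2 had the lowest G0s2 in either group. The log2 fold change was -0.11, with a 95% interval from -0.47 to 0.25 and an adjusted p of 0.885 in DESeq2 and of 0.817 in edgeR. It ranged from -0.26 without control liver 2 to -0.0030 without Smo-KO liver 4. Within each liver, the ratio of G0s2 to Pnpla2 CPM was 0.601, 0.492, 0.723 and 0.662 in control and 0.459, 0.431, 0.445 and 0.364 in Smo-KO livers. Every Smo-KO liver thus had fewer G0s2 reads per Pnpla2 read than any control liver (mean 0.619 ± 0.0986 and 0.425 ± 0.0420, SD, n = 4 each), a ratio that does not depend on the scaling and was not tested.

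For its activator and its other inhibitor the groups overlapped. Abhd5, its activator, measured 38.3 to 48.3 CPM in control and 43.7 to 52.2 CPM in Smo-KO livers, and Hilpda, its inhibitor under low oxygen, 8.70 to 10.6 and 7.96 to 11.5 CPM. Exons of A730085K08Rik on the opposite strand share 30.1% of the exon bases of Abhd5, so its level is uncertain in the same way as that of Lipe. The ratio of Hilpda to Pnpla2 was 0.0613 ± 0.0144 in control and 0.0452 ± 0.00573 in Smo-KO livers, that of Abhd5 to G0s2 0.473 ± 0.164 and 0.537 ± 0.101, and that of Lipe to Pnpla2 0.0795 ± 0.00843 and 0.0793 ± 0.0144 (SD, n = 4 each). In all 3 ratios the groups overlapped. Of the ratios formed between members or their partners, 7 in all, G0s2 to Pnpla2 was the one without overlap. Its denominator, Pnpla2, was without overlap by itself while G0s2 was not, so this ratio is not a result separate from that of Pnpla2. How often the ratio of any other gene to Pnpla2 would separate the groups was not examined.

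**Figure D4:**
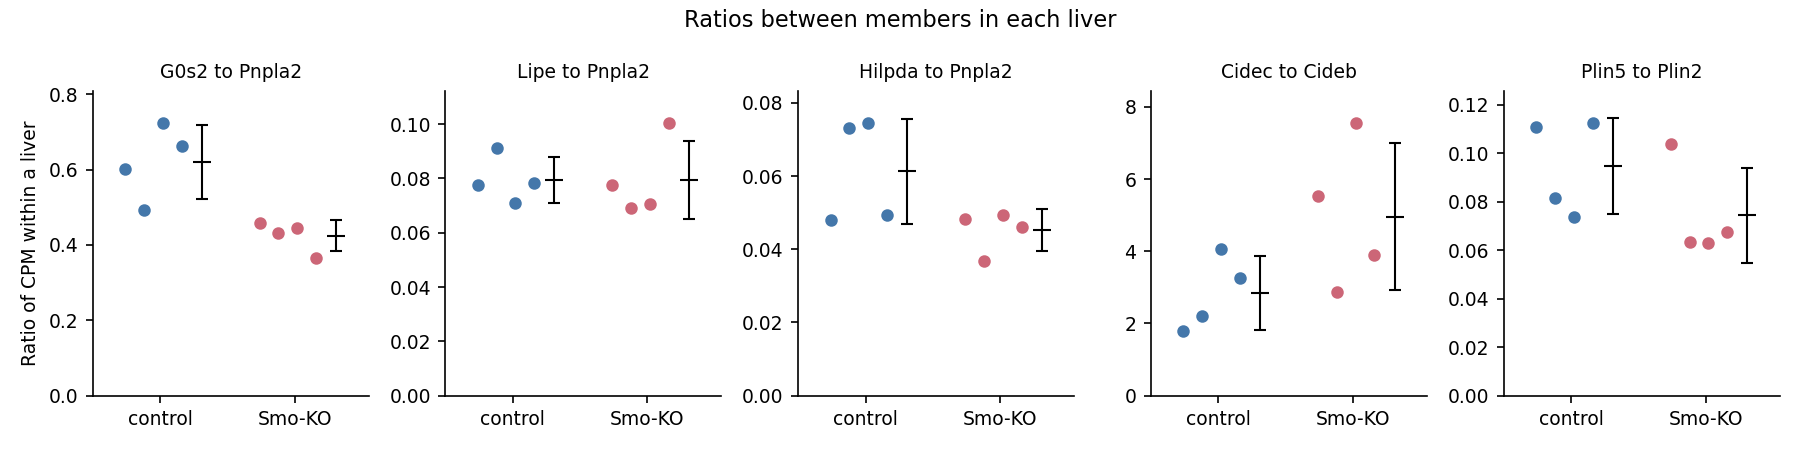
Ratios of CPM within each liver, on axes that start at 0, with 1 point per liver (blue, control; red, Smo-KO; livers 1 to 4 from left to right) and the mean with its SD. The ratio of G0s2 to Pnpla2 is 0.364 to 0.459 in Smo-KO livers and 0.492 to 0.723 in control livers, and the other ratios overlap.

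Among the CIDE genes, Cidec (Fsp27), which moves lipid from small to large droplets, was higher on average in Smo-KO livers, with wide scatter in both groups. It measured 30.8, 31.2, 61.5 and 47.2 CPM in control livers 1 to 4 and 87.0, 46.0, 79.1 and 41.1 CPM in Smo-KO livers 1 to 4. Smo-KO livers 1 and 3 stood above all control livers, and Smo-KO livers 2 and 4 among them. The log2 fold change was 0.57 with an SE of 0.26, and edgeR's unadjusted p of 0.0502 was at the threshold (adjusted p = 0.362). It was under 0.05 with other size factors (0.0485), with at least 10 counts in every liver (0.0488), without the filter (0.0213) and with the replicate number as a block (0.0286), and 0.113 in DESeq2. Leaving out single livers moved the fold change between 0.38 (without Smo-KO liver 1, unadjusted p = 0.176) and 0.80 (without control liver 3, 0.0082), and the p was also under 0.05 without Smo-KO liver 2 (0.0261) or 4 (0.0148).

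Cideb, which helps to load triglyceride onto very low density lipoprotein, measured 17.1, 14.2, 15.1 and 14.4 CPM in control livers and 15.8, 16.0, 10.5 and 10.6 CPM in Smo-KO livers. Smo-KO livers 3 and 4 were below all others, and Smo-KO livers 1 and 2 were within the control range (log2 fold change -0.20, SE 0.16, edgeR adjusted p = 0.612). The fold change was -0.11 and -0.10 without Smo-KO livers 3 and 4, and -0.30 without Smo-KO liver 2. On the opposite strand, exons of Nop9 cover 71.0% of the exon bases of Cideb (chromosome 14, minus strand, 55754050 to 55758458), so reads of the 2 genes could be split or dropped by the counting and the level is uncertain. The ratio of Cidec to Cideb was 2.84 ± 1.03 in control and 4.96 ± 2.04 in the 4 Smo-KO livers (SD, n = 4 each), with overlap. Cidea had 0 to 2 reads in every liver and did not pass the filter, below the 3 reads that a count of 0 allows.

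**Figure D5:**
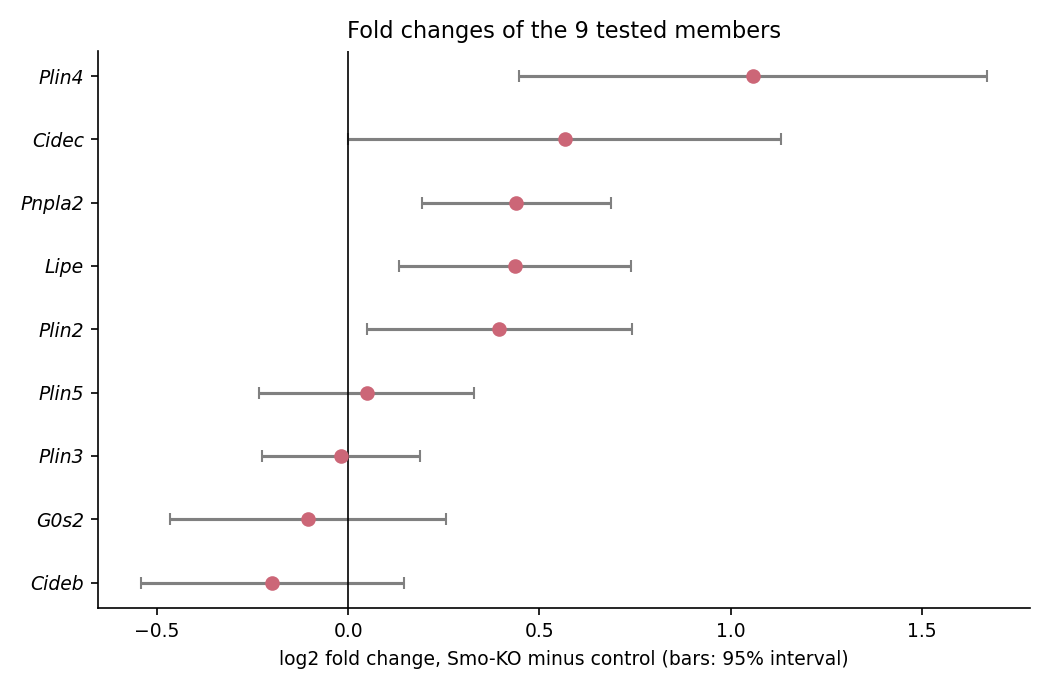
Log2 fold change of the 9 tested members (Smo-KO minus control, edgeR) with its 95% interval, in order of size. The intervals of Plin4, Pnpla2, Lipe and Plin2 lie above 0, that of Cidec ends just below it, and those of Plin5, Plin3, G0s2 and Cideb include it well inside.

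The stretch of DNA just before the start of transcription is shown for 3 of the members with an unadjusted p under 0.05. It was searched for the DR1 element, the site that PPAR receptors, sensors of fatty acids, bind together with RXR. DR1 was written as a pair of AGGTCA half-sites in the same direction with 1 base between them, and was searched on both strands with at most 2 mismatches, in windows from 250 bases before to 50 bases after the start. RefSeq windows (GRCm38.p6) were given for 9 of the 10 members, 12 windows in all, and 1 of the 12, that of Plin2, held a match. Of all 32851 windows 3.86% held one. The sequences are written in the direction of the gene and stop before the annotated gene begins, with the match in capitals: Plin2 chr4:86670061-86670309, minus strand; Plin4 chr17:56109804-56110032, minus strand; Pnpla2 chr7:141454938-141455187, plus strand.
Plin2: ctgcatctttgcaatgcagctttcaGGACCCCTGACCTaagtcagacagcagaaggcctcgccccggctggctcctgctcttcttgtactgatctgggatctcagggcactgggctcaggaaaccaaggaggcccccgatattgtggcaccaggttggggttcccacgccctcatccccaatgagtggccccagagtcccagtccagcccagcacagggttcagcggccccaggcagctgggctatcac
Plin4: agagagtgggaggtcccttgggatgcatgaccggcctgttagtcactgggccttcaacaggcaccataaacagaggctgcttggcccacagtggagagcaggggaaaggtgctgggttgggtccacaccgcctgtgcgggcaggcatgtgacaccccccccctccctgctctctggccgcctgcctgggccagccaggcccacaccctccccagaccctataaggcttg
Pnpla2: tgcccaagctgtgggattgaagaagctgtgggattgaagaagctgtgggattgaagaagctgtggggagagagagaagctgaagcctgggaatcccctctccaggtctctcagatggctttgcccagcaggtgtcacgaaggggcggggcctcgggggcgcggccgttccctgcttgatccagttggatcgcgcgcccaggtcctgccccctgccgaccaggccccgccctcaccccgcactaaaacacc
The match in Plin2 begins 225 bases before the start, reads on the strand opposite to the gene and has 2 mismatches. The windows of Plin4 and Pnpla2 hold no such letters. A match is a description of the sequence, and whether a receptor binds there was not tested.

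Around the members, 62 other genes of the droplet and of lipid breakdown were examined in 5 lists, of which 61 passed the filter. In edgeR 15 of these (24.6%) had an unadjusted p under 0.05, of which 10 stood higher and 5 lower after the loss of Smo, beside the 13.8% of all genes tested, and 0 passed after adjustment. DESeq2 called 4 of the 61, beside 1.29% of the 12974 genes to which it gave an adjusted p. In 8 of the 61 the groups did not overlap, beside 7.37% of all genes tested. These shares of all genes are the same for each list below. The median log2 fold change of the 61 genes was 0.049. The lists, like the members, were chosen with earlier results of these data known.

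Among 12 partners of the lipases, of which 11 were tested, 4 had an unadjusted p under 0.05, 1 higher and 3 lower. The 3 lower ones were Pnpla3, Faf2 and Prkaca, and each of their Smo-KO livers lay below all control livers. Over all genes tested, the groups did not overlap in 7.37%, in either direction. Pnpla3, a droplet protein that competes for Abhd5 and whose RNA follows feeding and insulin, measured 2.15, 2.73, 2.19 and 2.57 CPM in control livers and 0.928, 1.31, 1.22 and 0.746 CPM in Smo-KO livers. These levels rest on 7 to 26 reads per liver. Its log2 fold change of -1.20 (SE 0.26) had an adjusted p of 0.126 in edgeR and of 0.0766 in DESeq2. Faf2 (UBXD8), which limits lipolysis at the droplet, had a log2 fold change of -0.23, and Prkaca, the catalytic subunit of protein kinase A that switches lipolysis on, one of -0.27. Ddhd2, a triglyceride lipase best known from brain, had one of 0.46 with overlapping groups. Without Smo-KO liver 3 that of Ddhd2 was 0.27 and its unadjusted p 0.116, and the unadjusted p was then 0.0806 for Faf2 and 0.0517 for Prkaca. It was also above 0.05 for Ddhd2 without control liver 1 (0.0783) or 3 (0.0567), and for Faf2 without control liver 2 (0.0540) or 3 (0.0624). Aup1, the most abundant of the list, had a log2 fold change of 0.02. Plin1, the perilipin of adipocytes, had 0 or 1 read in every liver.

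All 11 genes of the list of droplet formation were tested (Ldaf1 under its older symbol Tmem159), and 1 had an unadjusted p under 0.05. Acsl3, an acyl-CoA synthetase on new droplets, measured 36.2, 28.2, 34.3 and 32.3 CPM in control livers and 24.3, 23.8, 14.5 and 23.0 CPM in Smo-KO livers. The groups did not overlap, with a log2 fold change of -0.61 (SE 0.15) and an adjusted p of 0.146 in edgeR and 0.0285 in DESeq2. Lpin2, a phosphatidate phosphatase that makes diglyceride and the most abundant of the list, had a log2 fold change of 0.33 and overlapping groups. The fold change ranged from 0.17 to 0.49 with each liver left out in turn.

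Of 14 other proteins of the droplet surface, 4 had an unadjusted p under 0.05, 3 higher and 1 lower. Aifm2 (FSP1), which protects membranes from lipid peroxidation, measured 58.1, 49.2, 43.8 and 66.2 CPM in control livers and 71.3, 73.6, 85.7 and 75.3 CPM in Smo-KO livers, without overlap. Its log2 fold change was 0.49 (SE 0.12), with an adjusted p of 0.151 in edgeR and of 0.0320 in DESeq2. Hsd17b11, a dehydrogenase of the droplet, and Vps13a, a lipid transfer protein, had log2 fold changes of 0.43 and 0.35 with overlapping groups. Without Smo-KO liver 3 that of Hsd17b11 was 0.27 (unadjusted p = 0.0543) and that of Vps13a 0.25 (0.131). The unadjusted p of Vps13a was also above 0.05 without Smo-KO liver 4 (0.122) and without control liver 1 (0.0938), 3 (0.0674) or 4 (0.0529). Spg20 (spartin) had a log2 fold change of -0.24 without overlap, which was -0.15 without Smo-KO liver 4 (unadjusted p = 0.157). Its unadjusted p was 0.0638 in DESeq2 and 0.0540 with other size factors. The p was also above 0.05 without Smo-KO liver 3 (0.0638) and without control liver 1 (0.0523), 2 (0.0834) or 4 (0.140). Mettl7b, the most abundant gene, had a log2 fold change of 0.01.

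Among 14 lipases and esterases outside the set, 4 had an unadjusted p under 0.05, all higher on average, and none was without overlap. Ces1d (triacylglycerol hydrolase), which mobilizes droplet fat for secretion, measured 169, 148, 126 and 182 CPM in control livers and 158, 300.5, 479 and 368 CPM in Smo-KO livers. Ces3b, a related carboxylesterase, measured 57.8, 36.3, 55.0 and 39.4 CPM in control livers and 38.6, 109, 299 and 121 CPM in Smo-KO livers. For both genes, Smo-KO liver 1 was within the control range, and the other 3 Smo-KO livers were above it. Among the members the same liver was the highest of all 8 for Plin3, Plin5 and Cidec. The log2 fold changes were 1.06 (edgeR adjusted p = 0.140) for Ces1d and 1.59 (0.172) for Ces3b, and the latter was 0.92 without Smo-KO liver 3. Without Smo-KO liver 1 edgeR called both (adjusted p = 0.0200 and 0.0266), and without the filter it called Ces1d (0.0393). Lpl, which takes fat from circulating lipoproteins, had a log2 fold change of 0.35, Ces1g one of 0.22, and Ces3a, the most abundant of the list, one of 0.13. The unadjusted p of Ces1g was above 0.05 without Smo-KO liver 2 (0.136), 3 (0.0924) or 4 (0.0654), and without control liver 1 (0.0805) or 3 (0.122).

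Of 11 transcription factors and coactivators that act on droplet genes, 2 had an unadjusted p under 0.05, beside 13.8% of all genes tested. Both were higher in every Smo-KO liver than in any control liver, an order found in 3.03% of all genes tested. Creb3l3 (CREBH), a fasting-induced factor of the hepatocyte, measured 422, 392, 368 and 380.1 CPM in control livers and 443, 535, 558 and 471 CPM in Smo-KO livers. Mlxipl (ChREBP), the carbohydrate-responsive factor, measured 206, 183, 105 and 141 CPM in control livers and 238, 233, 235 and 245 CPM in Smo-KO livers. Their log2 fold changes were 0.36 (SE 0.10) and 0.58 (SE 0.16), with adjusted p of 0.163 and 0.175 in edgeR and of 0.0313 and 0.0387 in DESeq2. The groups overlapped for the PPAR genes: the log2 fold change was 0.23 for Ppara (edgeR adjusted p = 0.463), 0.01 for Pparg (0.989) and -0.05 for Ppard (0.906), and that of Hnf4a, the most abundant of the list, was -0.13. With each liver left out in turn, that of Ppara ranged from 0.13 to 0.32.

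The genes whose levels ran most like single members over the 8 livers were found by the Pearson correlation of log2 CPM with 9337 genes of at least 10 CPM, as a description, since the livers share the group difference and the scaling. For Plin2 they were Hadhb, a subunit of the mitochondrial trifunctional protein of fatty acid oxidation (r = 0.972), and Abhd17b (0.966). For Plin4 they were Cib3 (0.941) and Dnase2a (0.940), and for Lipe Pcsk4 (0.989) and Pagr1a (0.988). For Cidec they were Tlr1 (0.928) and Fbxl4 (0.926), for Cideb Ap2a1 (0.980) and Klhl20 (0.975), and for G0s2 Uvrag (0.970) and Sephs1 (0.920). Plin3 ran most like Cep170b (0.936) and Nup210 (0.918), and Plin5 like Tmem8 (0.903) and Gng2 (0.896).

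The tissue was that of the labels: Alb, the most abundant hepatocyte marker, was at 15378 to 17680.0 CPM in control and 14262 to 16441 CPM in Smo-KO livers. The 8 hepatocyte markers summed to 33414 ± 2227 CPM in control and 32475 ± 1092 CPM in Smo-KO livers (SD, n = 4 each), with 2 higher and 6 lower on average and a median log2 fold change of -0.10, and 1 of the 8, Cps1 of the urea cycle, had an unadjusted p under 0.05 and was lower. Because Plin4, Lipe, Cidec and Plin2 are also genes of adipocytes, 9 adipocyte markers were read. Of these, 2 (Lep, Ucp1) had 0 reads in every liver, and Adipoq, Plin1, Retn and Cfd had at most 1 read in any. The list summed to 29.9 ± 9.25 CPM in control and 33.0 ± 10.8 CPM in Smo-KO livers. Its most abundant gene was Thrsp, which hepatocytes also express, at 5.37 to 26.9 and 4.02 to 21.8 CPM. The only one with an unadjusted p under 0.05 was Adrb3, with a log2 fold change of 0.78. Without Smo-KO liver 4 that of Adrb3 was 0.62, with an unadjusted p of 0.0638. Fabp4, also of this list, measured 8.17 to 12.5 CPM in control and 9.39 to 15.9 CPM in Smo-KO livers. Its groups overlapped, with a log2 fold change of 0.30 (edgeR adjusted p = 0.530).

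Macrophages also hold Plin2 and Lipe when they take up lipid. The 9 macrophage markers summed to 1919 ± 220.03 CPM in control and 2008 ± 218 CPM in Smo-KO livers (SD, n = 4 each), with a median log2 fold change of 0.06, 5 higher and 4 lower on average, and the most abundant, Cd5l of resident Kupffer cells, measured 466 to 766 and 436 to 740.3 CPM. Of the 9, Trem2 and Lyz2, named after their values were seen, had an unadjusted p under 0.05, and both were higher in every Smo-KO liver than in any control liver. Over all genes tested, 13.8% had such a p in either direction and 3.03% lay in that order. Trem2, a receptor of lipid-associated macrophages, measured 29.8, 36.2, 32.8 and 35.7 CPM in control livers and 43.9, 54.6, 66.5 and 61.1 CPM in Smo-KO livers, with an adjusted p of 0.0957 in edgeR and of 0.000169 in DESeq2. With edgeR it also passed with the replicate number as a block (0.0457), without the filter (0.0182) and without Smo-KO liver 1 (0.0200). Whether these cells contribute to the levels of Plin2 or Lipe was not tested. The 6 endothelial markers (most abundant Clec4g) summed to 183 ± 17.8 and 152 ± 47.9 CPM. All 6 had a negative log2 fold change (median -0.27), and 1, Pecam1 (-0.50), had an unadjusted p under 0.05, which it lost without Smo-KO liver 2 (0.0753) or 3 (0.0623) or control liver 3 (0.0752). The 8 stellate cell markers (Dcn) summed to 735 ± 54.4 and 729 ± 102 CPM, with 5 higher and 3 lower on average, and 1, Col1a1 of fibrillar collagen (-0.36), had such a p. The 5 cholangiocyte markers (Spp1) summed to 148 ± 41.9 and 177 ± 45.5 CPM, with none at such a p. Skeletal muscle holds Plin4 and Plin5 too, and its 6 markers summed to 2.64 ± 1.29 and 1.80 ± 0.673 CPM, with Mylpf the most abundant and Myh4 and Myh2 at 0 reads in every liver. Acta1, which did not pass the filter, had 4, 3, 26 and 17 reads in control livers 1 to 4. In Smo-KO livers 1 to 4 it had 2, 0, 1 and 2 reads, without overlap. Whether muscle RNA contributes to the level of Plin4 or Plin5 was not tested.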

How the data were processed

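RNA of 8 livers was sequenced and the authors deposited raw counts, whole numbers of reads per gene symbol without normalization, 1 list per liver. The submitters' notes name fastp, STAR 2.7.5, featureCounts 2.0.1 and GRCm38, while the lists have the form of htseq-count output; counting options are not given in the sources used here. Reads on no feature (8.33% ± 0.743 of counted reads in control, 9.23% ± 0.330 in Smo-KO livers, SD, n = 4 each) and on more than 1 gene were left out. From these counts, edgeR 4.0.16 in R 4.3.3 was fitted to all genes (filterByExpr, TMM, quasi-likelihood test, genotype as the only term, Benjamini-Hochberg over 12977 genes), with DESeq2 1.42.0 as an alternative. Single values were compared by exact permutation tests over 70 assignments, two-sided. Gene lengths came from GENCODE M21 (GRCm38) and promoters from RefSeq. Pairs of livers of 1 group differed by 7.76 to 17.6 chi-square per degree of freedom, so none was a copy. Depth describes counting error only. Named were the members, Smo, every pathway-list gene at an unadjusted p under 0.05, the most abundant gene of each list, marker genes at 0 reads, and per member the 2 genes with the highest correlation. Abhd5, Hilpda, Plin1, Adipoq, Retn, Cfd, Fabp4, Acta1, the PPAR genes, Cps1, Adrb3, Trem2, Lyz2, Pecam1 and Col1a1 were named outside this rule, after values were seen. The result of this rule for Pnpla2 is not reported here. The members and lists were chosen with earlier results of these data known. Alternatives were other size factors, DESeq2, no filter, at least 10 counts in every liver, plain library sizes, the replicate number as a block and each liver left out. No protein sequence was used here.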

Additional observations from a re-analysis of the deposited data

Results flagged for a closer look

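In 4 of 68 groups of 4 livers examined, 1 liver lay far from the other 3 (by Dixon's ratio of the gap to the range at the 95% level), where chance alone gives about 3.4. Plin3 was at 111 CPM in control liver 4, beside 126 to 128 CPM in the other control livers. Acsl3 was at 14.5 CPM in Smo-KO liver 3, beside 23.0 to 24.3 CPM in the others of its group. The ratio of Plin5 to Plin2 CPM was 0.104 in Smo-KO liver 1, beside 0.0629 to 0.0676. Smo-KO liver 3 had 8203299 reads on genes, beside 9367795 to 9543675 in the other Smo-KO livers.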

How the results depend on the processing

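Genes whose adjusted p was under 0.05 numbered 0 with edgeR, 167 with DESeq2, 61 without the filter on low counts and 8 with a replicate block. With each liver left out it ranged from 0 to 78 (5 without control liver 1, 78 without Smo-KO liver 1, 4 without Smo-KO liver 3). Of the members, DESeq2 called 2 and edgeR 0 under every other setting, and the count at an unadjusted p under 0.05 stayed between 3 and 5, with Cidec as the fifth where the filter, the size factors or the block were changed or where control liver 3 or Smo-KO liver 2 or 4 was left out. Of the other named genes, Faf2, Ddhd2, Prkaca, Hsd17b11, Spg20, Vps13a, Ces1g, Adrb3 and Pecam1 lost that p in at least 1 fit with a liver left out, and Spg20 also with the block (0.0541), DESeq2 (0.0638), other size factors (0.0540) and at least 10 counts (0.0522). Of 117 recomputed member fold changes, 110 kept their direction and call and 2, those of Plin4 (1.07) and Pnpla2 (0.45) with DESeq2, passed the threshold. The other 5 changed sign around 0: with a liver left out, Plin3 ranged from -0.0712 to 0.0337 (0.00021 without control liver 1, 0.0095 and 0.0337 without Smo-KO livers 3 and 4) and Plin5 from -0.0399 to 0.146 (-0.0399 and -0.0203 without Smo-KO livers 1 and 3). The cause was not tested. The fold change of Smo, -0.88, passed the threshold with DESeq2 (-0.87), without the filter (-0.88) and without Smo-KO liver 1 (-0.997), and ranged from -0.997 to -0.811 with a liver left out. None of 18 member means moved by more than 1 SD with plain library sizes. The groups share replicate numbers, which no label explains. Same-numbered livers had correlated deviations of 0.104, 0.187, 0.0611 and 0.113, and not every liver correlated best with its own number, so pairing was not assumed. The replicate block called 0 members after adjustment and moved the genes at an unadjusted p under 0.05 from 1797 to 2115. The depth limits Cidea and Plin1, at 0 to 2 reads, and Pnpla3, at 7 to 26.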
